A study of Mus musculus with 11 samples.

Results

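The genes for the receptors of glutamate and GABA were followed through 11 messenger RNA libraries of the embryonic mouse dorsal telencephalon, the part of the forebrain that forms the neocortex. Members were chosen by symbol alone: every subunit of the AMPA, kainate, NMDA and delta receptors, the metabotropic glutamate receptors, and the subunits of the GABA-A, GABA-rho and GABA-B receptors. The rule found 47 of the 46078 genes in the files, in classes of 4 AMPA, 5 kainate, 7 NMDA, 2 delta, 8 metabotropic, 16 GABA-A, 3 GABA-rho and 2 GABA-B receptor genes. Of these, 44 had more than 3 counts in at least 1 library, and 3 (Gabrp, Gabrr1 and Gabrr3) had at most 3 counts in every library.

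All embryos were of the CD-1 strain. In 6 libraries, wild-type embryos had been electroporated in utero at E12.5 and GFP+ cells were sorted at E15.5. In 3 of these the plasmid was pCIG2, which carries GFP alone (the GFP controls), and in 3 it was pCIG2-L3mbtl3, which adds L3mbtl3, a chromatin protein with MBT domains. The other 5 libraries came from dorsal telencephalon at E12.5, not electroporated and not sorted. Their labelled genotypes were L3mbtl3 +/- (2 libraries) and wild-type (1 library), which together form the 3 E12.5 controls, and L3mbtl3 -/- (2 libraries). Whether the libraries of a group represent different embryos is not stated, and each p-value therefore covers no more than the spread among these samples, which may be technical.

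Glutamate opens AMPA, kainate and NMDA receptors, which are cation channels built from several subunits, and acts on metabotropic receptors, which signal through G proteins. GABA opens GABA-A and GABA-rho receptors, which are chloride channels, and acts on the GABA-B receptor, a G protein-coupled pair of Gabbr1 and Gabbr2 proteins. In the embryonic cortex these receptors are present before most synapses form. GABA is known to depolarise immature cortical cells there, and both transmitters are known to act on the division and migration of young cells. Subunit makeup is known to change as neurons mature.

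Library totals ran from 16527551 to 26658718 counts, so that 3 counts, the limit that a count of 0 allows, stood for 0.113 to 0.182 CPM (reads counted for a gene, scaled to the library total). L3mbtl3 itself measured 51.5, 46.4 and 52.9 CPM with GFP alone and 1411, 1158 and 824 CPM after its own electroporation. In the libraries labelled knockout it was not lower, at 74.5 and 77.2 CPM against 61.5 and 64.1 in the heterozygotes and 64.7 in the wild-type, and those libraries are therefore named by their label throughout. The labels do not say which part of the gene the allele removes, and a total over its exons would not show a short deletion. Xist, the X-inactivation transcript, was at 2509 and 2539 CPM in L3mbtl3-electroporated replicates 1 and 3 and at 3082 CPM in labelled knockout replicate 2, and at 1.82 CPM or less in the other 8. The members Gria3, Gabra3, Gabre and Gabrq are X-linked. GFP control replicate 1 stood apart in genes of the ventral telencephalon and GABAergic neurons, 15 genes that summed to 1136 CPM there against 380.5 and 39.5 CPM in the other GFP controls and 326, 304 and 46.9 CPM in the L3mbtl3-electroporated libraries. Cortical progenitor genes (11) followed the same order within the GFP controls, at 2041, 1410.1 and 639.7 CPM.

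Summed over the members, receptor transcripts were more abundant in the sorted E15.5 cells than in the E12.5 tissue. The 47 genes together gave 2366, 2306 and 2072 CPM with GFP alone and 2825, 2563 and 2775 CPM with L3mbtl3. At E12.5 they gave 902 and 963 CPM in the heterozygotes, 958 in the wild-type and 923 and 836 in the libraries labelled knockout. Every sorted library stood above every tissue library, and AMPA receptor subunits made up most of the difference. Their sum was 1312, 1294 and 1045 CPM in the GFP controls, against 319 to 389 CPM over the 5 tissue libraries. Nearly all of it was Gria2, at 1245, 1231 and 979 CPM against 270 to 334 CPM, and Gria4 was lower in the sorted cells. GABA-B subunits summed to 355 to 410.5 CPM over the 6 sorted libraries against 126 to 139 CPM at E12.5, and NMDA subunits to 104 to 142 CPM against 19.7 to 30.0 CPM. The GABA-A sums were closer, at 166 to 204 CPM against 122 to 144 CPM. In bulk libraries, fewer cells of a type and less RNA per cell cannot be told apart.

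**Figure D1:**
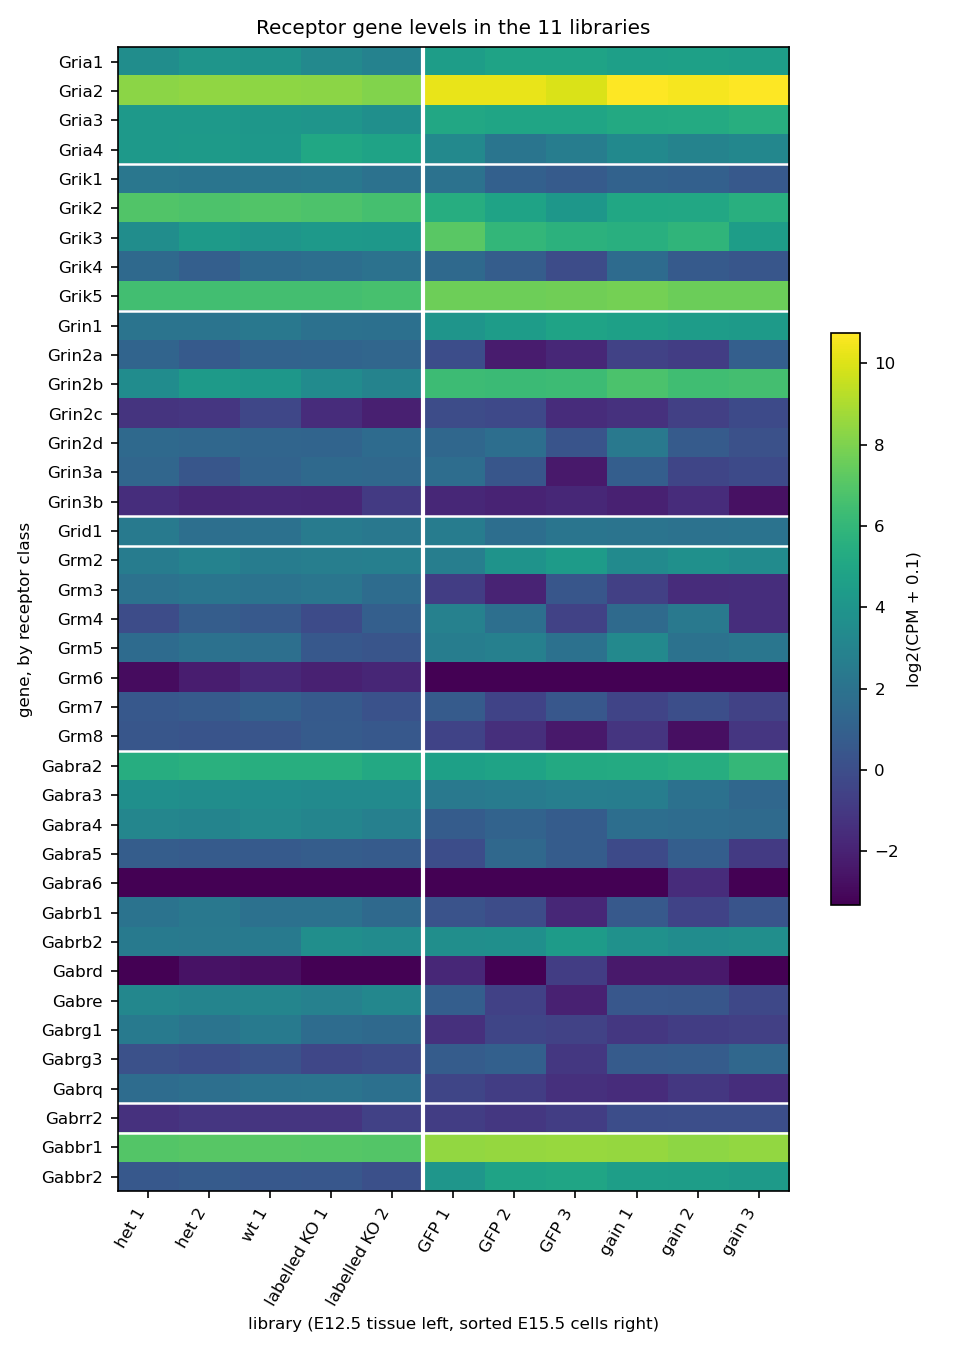
Level of each receptor gene (rows, grouped by class) in each of the 11 libraries (columns), coloured by log2(CPM + 0.1); genes with at most 3 counts in every library and genes not reported here are left out. Gria2 is the brightest row, at 979 to 1714 CPM in the sorted E15.5 cells and 270.5 to 334 CPM in the E12.5 tissue.

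Levels of different genes were compared per kilobase of the exon length in the files. In the GFP controls the most abundant were Gria2, the AMPA subunit that keeps calcium out of the channel once its transcript is edited, at 74.1 ± 9.64 CPM per kb (SD, n = 3), Grik5, a kainate subunit that works only together with others, at 51.9 ± 1.37, and Gabbr1, the GABA-binding subunit of the GABA-B receptor, at 47.2 ± 2.08. These 3 did not overlap over the 3 libraries. At E12.5 the same 3 genes led in another order, with Grik5 at 23.8 ± 0.721, Gria2 at 20.9 ± 0.845 and Gabbr1 at 17.2 ± 0.770 CPM per kb (n = 3). Next at E12.5 came Grik2, a kainate subunit, at 14.3 ± 0.563 CPM per kb, which was 3.56 ± 1.52 in the GFP controls, and Gabra2, a GABA-A alpha subunit prominent in the embryonic brain, at 5.95 ± 0.314 against 4.01 ± 0.777.

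Some members lay near the limit of detection. Gabra6, an alpha subunit known from cerebellar granule cells, had 0 counts in 10 libraries and 5 in L3mbtl3-electroporated replicate 2. Gabrd, the delta subunit of receptors outside synapses, had 0 to 10 counts. Grm6, known from the retina, had 0 counts in all 6 sorted libraries, which allows up to 0.144 to 0.164 CPM in each, and 1 to 4 counts at E12.5. Grin3b reached at most 9 counts, and Gabrr2, the only GABA-rho subunit above the floor, 6 to 20 counts.

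To place the members by age, the GFP controls were compared with the E12.5 controls. These groups differ in age, electroporation, sorting and, for 2 libraries, genotype, and these cannot be told apart. Where the text says between ages, it means this whole contrast. Of 39 members that passed the count filter, 27 differed (edgeR adjusted p under 0.05), 15 higher and 12 lower in the sorted cells. That share, 69.2%, lies near the 62.3% called among all 15968 genes tested. Higher calls made up 31.1% of all genes tested and lower calls 31.3%, against 38.5% and 30.8% of the members. The median log2 fold change was 0.38 over the members and -0.02 over all genes tested. Scaling by library totals in place of TMM factors (edgeR's correction for composition) gave 13 higher and 13 lower members, and moved the split over all genes from 4963 higher and 4992 lower to 3590 and 6525.

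Markers of other cells moved with the same contrast. All tested markers of endothelium and pericytes (9), choroid plexus (8), meninges and mesenchyme (7), erythroid cells (5) and Cajal-Retzius cells (8) were lower in the sorted cells. The endothelial genes summed to 460 to 544 CPM over the E12.5 libraries and 5.54 to 21.5 CPM over the sorted ones, and the meningeal genes to 1749.8 to 2239 CPM against 2.65 to 57.0 CPM. Of 12 neuronal genes, 11 were higher, with sums of 6335 to 8633 CPM against 2144 to 2768 CPM, and 7 of 11 cortical progenitor genes were lower. Of 10 genes of cortical excitatory neurons 6 were higher (sums of 3498 to 5607 CPM against 936 to 1278 CPM). Of 15 ventral and GABAergic genes 3 were called higher and 2 lower, with 12 of 15 fold changes above 0, a median of 2.57 and sums of 39.5 to 1136 CPM against 186 to 296 CPM. Intermediate progenitor genes had 3 of 8 higher and 3 lower. Lower calls also covered some microglial genes (3 of 10, sums of 5.54 to 37.2 CPM against 69.3 to 80.8 CPM) and oligodendrocyte lineage genes (2 of 6, sums of 6.78 to 42.2 CPM against 78.1 to 100.5 CPM). None of these genes was at 0 in all libraries of either age. The part that these cell types have in the receptor differences was not tested.

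**Figure D2:**
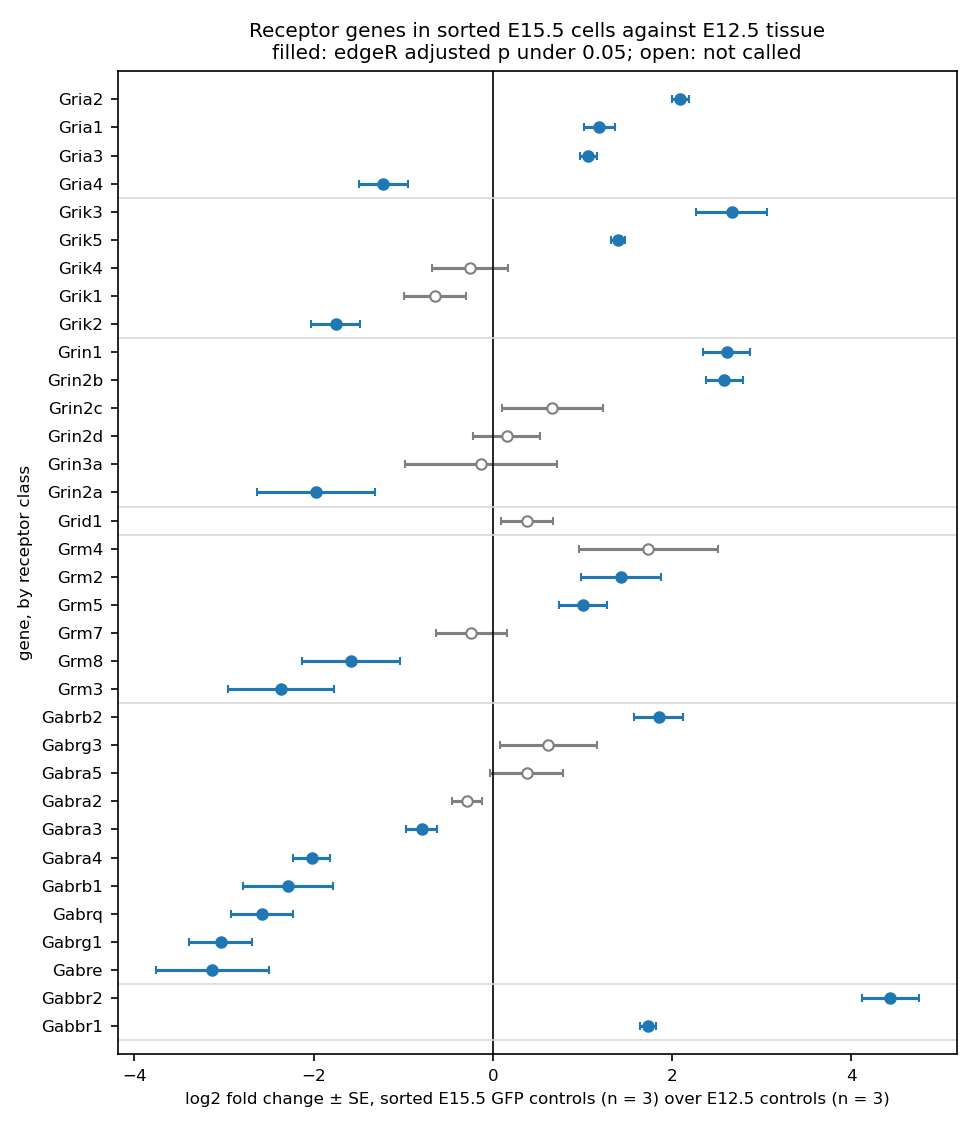
Log2 fold change ± SE of the receptor genes reported here, GFP controls at E15.5 (n = 3) over E12.5 controls (n = 3), grouped by receptor class; filled points passed edgeR's test at adjusted p under 0.05 and open points did not. The range runs from -3.13 for Gabre to 4.43 for Gabbr2.

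All 4 AMPA subunits differed, 3 higher and 1 lower. Gria2 (chr3:80681450-80802835, minus strand, GRCm38) measured 1245, 1231 and 979 CPM in the GFP controls, against 310.5, 334 and 332 CPM in the E12.5 controls, heterozygotes first. The groups did not overlap, and GFP control replicate 3 was the lowest of the sorted libraries. The log2 fold change was 2.09 (SE 0.0970, edgeR adjusted p = 2.8e-05). Gria1, which with Gria2 forms the common adult channel, was higher by 1.19 (SE 0.174, edgeR adjusted p = 0.00125), and the X-linked Gria3 by 1.06 (SE 0.0977, edgeR adjusted p = 0.00018). Gria4, a subunit known for its early expression, went the other way, with 9.73, 4.38 and 6.11 CPM in the GFP controls against 18.9, 20.3 and 17.7 CPM (log2 -1.23, SE 0.272, edgeR adjusted p = 0.00738). As a share of AMPA subunit transcripts per kb, Gria2 made up 87.6 to 91.9% over the 6 sorted libraries and 69.8 to 75.0% over the 5 tissue libraries, and Gria4 0.813 to 1.78% against 10.1 to 19.1%.

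Kainate subunits split. Grik5 was at 196, 197 and 205 CPM in the GFP controls, against 88.8, 91.2 and 94.3 CPM in the E12.5 controls, a log2 difference of 1.40 (SE 0.0796, edgeR adjusted p = 4.02e-05). Grik2, which can form channels by itself, was at 42.6, 28.1 and 17.6 CPM against 121, 113 and 122 CPM (log2 -1.76, SE 0.269, edgeR adjusted p = 0.00154). Neither gene's groups overlapped. Grik3 was higher by 2.66 (SE 0.400, edgeR adjusted p = 0.00141) but uneven, at 141 CPM in GFP control replicate 1 and 62.9 and 52.5 in the others, against 11.8, 20.5 and 16.2 CPM. Replicate 1 is also the library with the highest sum of ventral genes, and the part of those cells in the Grik3 value was not tested. Without replicate 1 all 3 of these genes kept their call in the same direction. Grik1 and Grik4 did not pass the test.

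In the NMDA receptor, the obligatory subunit and 1 of its partners were higher. Grin1, which every NMDA receptor contains, measured 16.3, 21.6 and 28.5 CPM against 4.13, 4.17 and 4.93 CPM (log2 2.61, SE 0.260, edgeR adjusted p = 0.000255). Grin2b, the partner known as the main embryonic one, measured 79.9, 77.3 and 80.8 CPM against 11.3, 19.97 and 17.0 CPM (log2 2.58, SE 0.208, edgeR adjusted p = 0.000118). For both, the GFP controls lay wholly above the tissue libraries. Grin2a, a partner known from the postnatal brain, was low everywhere and lower in the sorted cells, at 0.911, 0.109 and 0.192 CPM against 2.21, 1.45 and 2.14 CPM (log2 -1.97, SE 0.659, edgeR adjusted p = 0.0361). That call was lost when any 1 library other than GFP control replicate 1 was left out. Without that replicate the difference was -3.33, but the GFP controls left in that fit had only 2 and 4 counts. Among the GluN2 partners per kb, Grin2b made up 81.0 to 92.7% in the sorted libraries and 31.4 to 57.8% in the tissue, where Grin2d held 29.7 to 52.2%. These shares depend on exon lengths of 24.8 kb for Grin2b and 5.86 kb for Grin2d. By CPM alone, the tissue libraries held 7.58 to 19.97 of Grin2b and 2.26 to 2.98 of Grin2d. Grin2c, Grin2d and Grin3a did not pass the test.

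The delta receptor Grid1, at 3.34 to 5.94 CPM in the controls of both ages, did not pass. Among metabotropic receptors 2 were higher and 2 lower. Grm3, which inhibits adenylate cyclase, was at 0.479, 0.164 and 1.25 CPM against 3.83, 4.36 and 4.02 CPM (log2 -2.37, SE 0.590, edgeR adjusted p = 0.0119). Without GFP control replicate 3 the Grm3 difference was -3.36, with only 10 and 3 counts in the GFP controls left. Grm8, of the same inhibitory kind, was lower at 0.623, 0.274 and 0.0962 CPM against 1.24, 1.15 and 1.22 CPM (log2 -1.58, SE 0.545, edgeR adjusted p = 0.0399). Without GFP control replicate 1 the Grm8 difference was -2.41, with only 5 and 2 counts in the GFP controls left. Grm5, which couples to phospholipase C, was higher at 6.09, 6.95 and 3.65 CPM against 2.93, 3.69 and 3.36 CPM (log2 1.01, SE 0.268, edgeR adjusted p = 0.0153), with GFP control replicate 3 just below the highest tissue library on the CPM scale. Grm2 was at 6.28, 15.1 and 21.0 CPM against 5.89, 7.503 and 5.90 CPM, so the groups overlapped (log2 1.43, SE 0.442, edgeR adjusted p = 0.0273). Neither Grm5 (edgeR adjusted p = 0.0561) nor Grm2 (0.0511) passed when library totals replaced TMM factors. Calls at these low levels leaned on single libraries: with 1 library left out, Grm8 and Grm2 each kept their call in 2 of 6 fits (edgeR adjusted p up to 0.119 and 0.0896), and Grm5 in 4 (up to 0.0691). Grm4 and Grm7 did not pass.

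GABA-A subunit genes were both higher and lower in the sorted cells, with 4 and 6 calls among 13 tested. Over all genes tested, 31.1% were called higher and 31.3% lower. Gabrb2, a beta subunit, measured 12.1, 12.7 and 21.2 CPM against 5.21, 5.08 and 5.24 CPM. The groups did not overlap, and GFP control replicate 3 was the highest (log2 1.85, SE 0.273, edgeR adjusted p = 0.00132). Gabra5 and Gabrg3 did not pass the test. Many GABA-A subunit genes lie beside each other on a chromosome, and the clusters on chromosomes 5 and X held all 6 lower calls.

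In the chromosome 5 cluster (chr5:70751047-72149037, GRCm38, in the order Gabrg1, Gabra2, Gabra4, Gabrb1) 3 of 4 genes were lower. Gabrg1, a gamma subunit, was at 0.288, 0.657 and 0.577 CPM against 5.48, 4.24 and 5.44 CPM (log2 -3.04, SE 0.354, edgeR adjusted p = 0.000471). Gabra4 was lower by 2.02 (log2 -2.02, SE 0.209, edgeR adjusted p = 0.000283) and Gabrb1 by 2.28 (log2 -2.28, SE 0.504, edgeR adjusted p = 0.00718). Gabra2, the neighbour of Gabrg1 and the most abundant of the 4, did not pass: it measured 25.7, 29.0 and 37.2 CPM against 43.6, 48.2 and 44.7 CPM (log2 -0.29, SE 0.172, edgeR adjusted p = 0.183). On the CPM scale its groups did not overlap, whereas after TMM scaling they did.

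The X-linked cluster (chrX:72255999-72842602, GRCm38, in the order Gabre, Gabra3, Gabrq) had 3 of 3 genes lower, and Xist was at most 1.82 CPM in all 6 libraries compared. Gabre, the epsilon subunit, was at 1.73, 0.547 and 0.144 CPM in the GFP controls against 8.85, 8.17 and 8.44 CPM in the E12.5 controls (log2 -3.13, SE 0.632, edgeR adjusted p = 0.00498). Without GFP control replicate 1 the difference was -4.35, but the GFP controls left in that fit had only 10 and 3 counts. Gabrq, the theta subunit, was lower as well (log2 -2.57, SE 0.343, edgeR adjusted p = 0.000817). Gabra3, an alpha subunit known from the fetal brain, differed less, at 4.98, 5.58 and 6.40 CPM against 12.6, 11.6 and 11.5 CPM (log2 -0.80, SE 0.175, edgeR adjusted p = 0.00687). Gabrr2 and Gabrr1, neighbours on chromosome 4, did not pass the count filter. Genes of a cluster were not tested against genes elsewhere.

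**Figure D3:**
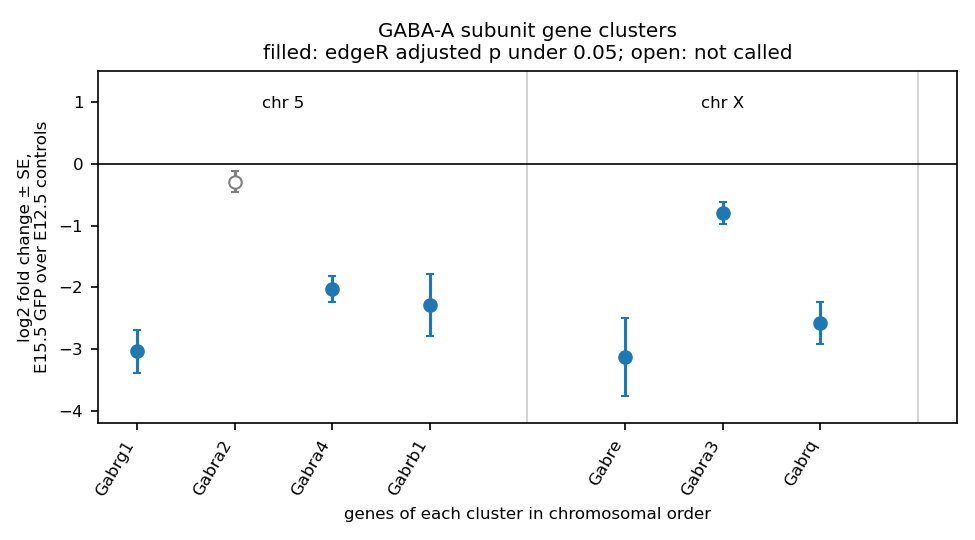
Log2 fold change ± SE of the GABA-A genes in the chromosome 5 and X clusters, GFP controls at E15.5 (n = 3) over E12.5 controls (n = 3), in chromosomal order within each cluster; filled points passed edgeR's test and open points did not. The 6 called genes lie between -3.13 and -0.80, and Gabra2 at -0.29 was not called.

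Both GABA-B subunits were higher. Gabbr1 (chr17:37045966-37075067, plus strand, GRCm38) measured 348, 372 and 379 CPM against 126, 137 and 136 CPM (log2 1.73, SE 0.0894, edgeR adjusted p = 3.27e-05). Gabbr2, the subunit that couples the receptor to G proteins and brings Gabbr1 to the surface (chr4:46662318-46991873, minus strand, GRCm38), measured 16.6, 28.4 and 31.3 CPM against 1.35, 1.57 and 1.37 CPM. The groups of both genes were far apart, and the Gabbr2 fold change was the largest of the 39 members tested, at 4.43 (SE 0.319, edgeR adjusted p = 8.27e-05). Of GABA-B subunit transcripts per kb, Gabbr2 made up 5.94 to 9.86% over the sorted libraries and 1.03 to 1.496% over the tissue libraries, so that Gabbr1 remained in excess at both ages.

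The windows upstream of 3 members are shown as examples of higher and lower genes: Gria2 as the most abundant and higher in the sorted cells, Grin1 as an obligatory subunit that was higher, and Gabrg1 as a gene that was lower. Each is the 250 bases before the RefSeq start (GRCm38.p6) on the gene's own strand, 5′ to 3′, with CG dinucleotides in capitals, at chr3:80802836-80803085 (Gria2), chr2:25319188-25319437 (Grin1) and chr5:70842618-70842867 (Gabrg1), all on the minus strand.
Gria2: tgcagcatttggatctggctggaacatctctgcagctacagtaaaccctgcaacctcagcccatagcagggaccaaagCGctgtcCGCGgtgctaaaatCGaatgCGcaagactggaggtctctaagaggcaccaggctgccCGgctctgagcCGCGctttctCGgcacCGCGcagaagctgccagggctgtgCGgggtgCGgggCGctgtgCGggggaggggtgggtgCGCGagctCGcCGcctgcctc
Grin1: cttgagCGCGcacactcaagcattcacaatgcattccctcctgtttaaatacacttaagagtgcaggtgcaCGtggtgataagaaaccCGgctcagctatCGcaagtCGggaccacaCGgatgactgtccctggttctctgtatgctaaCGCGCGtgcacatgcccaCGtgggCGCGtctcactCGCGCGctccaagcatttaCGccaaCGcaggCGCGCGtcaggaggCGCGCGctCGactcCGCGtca
Gabrg1: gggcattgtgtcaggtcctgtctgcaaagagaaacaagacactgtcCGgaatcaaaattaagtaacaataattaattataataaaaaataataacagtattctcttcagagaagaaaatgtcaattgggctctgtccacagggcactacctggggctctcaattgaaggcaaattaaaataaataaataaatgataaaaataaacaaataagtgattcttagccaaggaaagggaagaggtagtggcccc
The Gria2 window held 19 CG dinucleotides, the Grin1 window 27 and the Gabrg1 window 1, against a median of 6 over all 32851 such windows. RefSeq windows were found for 32 of the 47 members, 39 windows in all, with a median of 9 and a range of 0 to 42. The 3 windows shown do not stand for the higher or lower members as a set, and CG counts were not compared between those sets. The letters CAGNTG, an E-box core of the kind that proneural factors bind, were searched on both strands, since the title of the study names proneural genes. They occurred in 44.8% of all windows and in 13 of the 39 members' windows (33.3%), among them that of Grin1 but not those of Gria2 and Gabrg1. A match describes these letters only.

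The other genes of glutamate and GABA signalling were followed in fixed lists. Among auxiliary subunits of AMPA and kainate receptors, 10 of 13 tested were higher in the sorted cells and 1 lower. Cacng2 (stargazin), which carries AMPA receptors to the synapse, differed by 3.22 (log2, SE 0.225, edgeR adjusted p = 7.63e-05), Shisa9 by 2.87, Shisa7 by 1.81 and Neto2 by 0.78. The lower gene was Gsg1l (-1.38), named after its value was seen. Of 20 glutamate receptor scaffold genes 15 were higher and 2 lower, with Dlgap3 at 3.02, Shank1 at 2.46, Shank2 at 2.12 and Homer2 at -1.76. Of 14 GABA receptor scaffold and auxiliary genes 8 were higher and 2 lower, with the inhibitory synapse adhesion gene Nlgn2 at 1.92, Trak1 at 1.68, Lhfpl4 at 1.15 and Kctd12b at -4.13. These counts stand beside the 31.1% higher and 31.3% lower over all genes.

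In glutamate synthesis and transport 5 of 13 were higher and 2 lower, with the neuronal transporter Slc1a1 at 2.04, Glud1 at 0.83, Slc38a1 at 0.45 and the vesicular transporter Slc17a8 at -5.10. In GABA synthesis and transport 1 of 8 was called higher (Slc6a11, 3.46) and 2 lower (Slc6a13, -2.22, and Aldh5a1, -0.70), while 6 of the 8 fold changes were above 0 and their median was 1.76. Of 8 genes of chloride transport, none was higher and 4 were lower. They included Slc12a5 (KCC2), the cotransporter that extrudes chloride in mature neurons, at -1.51 (SE 0.387, edgeR adjusted p = 0.0131), with Wnk1 at -0.94, Stk39 at -0.89 and Slc12a7 at -0.87. Both tested glycine receptor genes were higher (Glra2 1.94, Glrb 0.72). So were 2 of the 3 genes of the adenosine deaminase family listed for RNA editing (Adarb1 0.86, Adar 0.81).

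The libraries labelled knockout were then compared with the 3 E12.5 controls, 2 of them labelled heterozygous. L3mbtl3 counts were not lower in the libraries labelled knockout. The comparison is therefore one of labelled genotypes, and these counts do not show that L3mbtl3 was reduced. Of 38 members tested 7 were called, 2 higher and 5 lower, which is 18.4% against 7.41% over all 16361 genes tested. Higher calls made up 3.63% and lower calls 3.78% of all genes. The median log2 fold change was -0.06 over the members and -0.00017 over all genes tested. With all 11 libraries in 1 fit, no member was called (edgeR), and only 6 genes of 17793. When 1 library was left out the number of called members ranged from 3 (without labelled knockout replicate 2) to 10 (without labelled knockout replicate 1), with 4 without heterozygote replicate 2 and 4 without the wild-type.

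Gabrb2 was the member with the smallest p. It measured 12.3 and 10.8 CPM in the libraries labelled knockout, 5.21 and 5.08 CPM in the heterozygotes and 5.24 CPM in the wild-type. The 3 controls were nearly equal, and both libraries labelled knockout stood above them (log2 1.16, SE 0.120, edgeR adjusted p = 0.000229).

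Gria4 was higher, at 33.2 and 28.8 CPM against 18.9 and 20.3 CPM in the heterozygotes and 17.7 CPM in the wild-type (log2 0.72, SE 0.0844, edgeR adjusted p = 0.000556). The other AMPA subunits were lower or did not pass. Gria1 measured 9.57 and 7.31 CPM against 11.9, 16.0 and 14.7 CPM (log2 -0.73, SE 0.155, edgeR adjusted p = 0.0190). Gria3 measured 15.8 and 12.6 CPM against 18.9, 18.9 and 17.6 CPM (log2 -0.38, SE 0.102, edgeR adjusted p = 0.0446), with the lower value in replicate 2, the library with Xist at 3082 CPM. Gria2 was at 309 and 270.5 CPM against 310.5, 334 and 332 CPM and did not pass (log2 -0.16, SE 0.0558, edgeR adjusted p = 0.116). Gria4 made up 19.0 and 19.1% of AMPA transcripts per kb in the libraries labelled knockout and 10.1 to 11.4% in the controls.

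Grm5 was at 1.37 and 1.21 CPM against 2.93, 3.69 and 3.36 CPM (log2 -1.34, SE 0.221, edgeR adjusted p = 0.00419). Gabrg1 was at 2.99 and 2.75 CPM against 5.48, 4.24 and 5.44 CPM (log2 -0.82, SE 0.180, edgeR adjusted p = 0.0185). Gabrb2, Gria4 and Grm5 kept their call with any 1 library left out. Others did not: Gria1 and Gabrg1 each kept it in 2 of 5 such fits and Gria3 in 1. Without labelled knockout replicate 2 the edgeR adjusted p was 0.106 for Gria1, 0.1004 for Gabrg1 and 0.326 for Gria3, whose log2 fold change was then -0.23. Gria3 was not called by DESeq2 either (adjusted p = 0.0986).

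**Figure D4:**
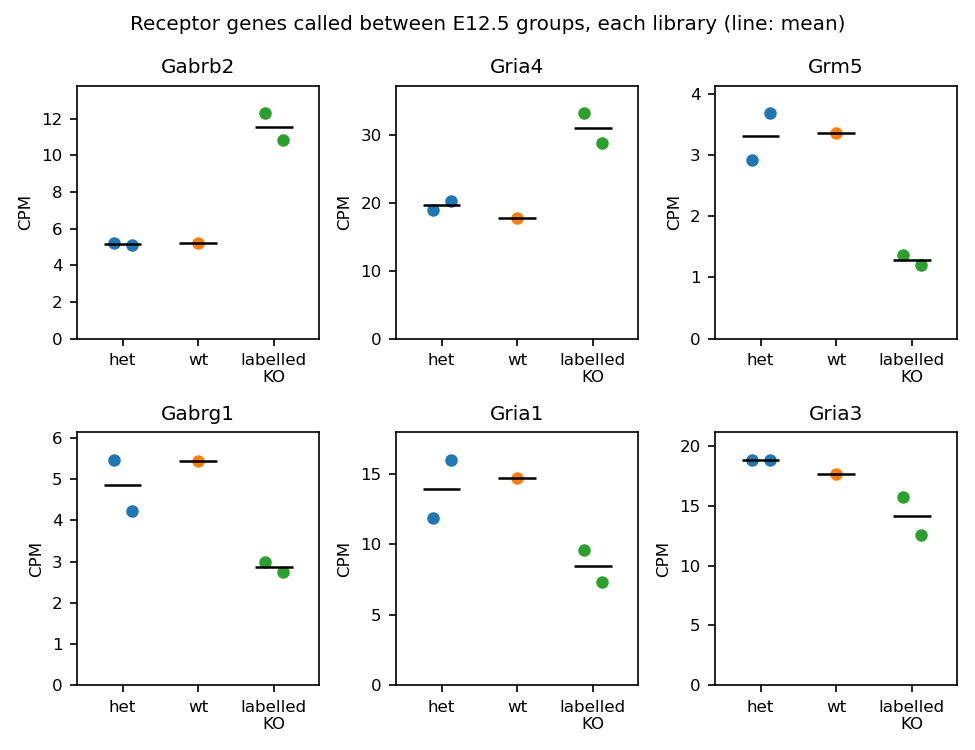
CPM of 6 receptor genes called between the E12.5 groups, 1 point per library, for heterozygote (n = 2), wild-type (n = 1) and labelled knockout (n = 2) libraries; the line is the group's mean and each axis starts at 0. Gabrb2 and Gria4 lie above all controls in both libraries labelled knockout, and the other 4 genes below all controls. With so few libraries, groups also did not overlap for some members that were not called, among them Gabbr2 and Grm8.

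Cell type markers differed between these groups too. Genes of the ventral telencephalon and GABAergic neurons summed to 296 and 249 CPM in the libraries labelled knockout against 186, 220 and 197 CPM, and 4 of 15 were called higher. Choroid plexus genes summed to 292 and 285 CPM against 602, 682 and 689 CPM, with 6 of 8 lower. Lower calls were also made for 4 of 12 neuronal genes (2423 and 2144 CPM against 2470.1, 2768 and 2681 CPM), 3 of 10 genes of cortical excitatory neurons and 5 of 8 of intermediate progenitors. Of 11 cortical progenitor genes 1 was higher and 2 lower, of 8 Cajal-Retzius genes 1 was lower, and of 6 oligodendrocyte lineage genes 1 was higher. Microglial, endothelial, meningeal and erythroid genes had 0 calls. Over all genes tested, 3.63% were called higher and 3.78% lower. None of the tested genes in these lists was at 0 in all libraries of a group, and their part in the receptor differences was not tested.

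In the other lists, most calls were lower. These counts stand beside the 3.63% higher and 3.78% lower over all genes tested. Auxiliary subunits had 1 of 13 higher (the kainate receptor partner Neto1, 0.92) and 1 lower (Cnih3, -0.87). Glutamate receptor scaffolds had 4 of 20 lower (Dlg2 -0.79, Shank2 -0.32, Shank1 -0.29, Dlg3 -0.23), and glutamate synthesis and transport 3 of 13 lower (the vesicular transporter Slc17a6 -0.37, the glial transporter Slc1a3 -0.33, and Slc1a4 -0.23). On the GABA side 1 of 8 genes of synthesis and transport was lower (Slc6a13, -1.01), and 1 of 14 receptor scaffold and auxiliary genes. Of 8 genes of chloride transport Wnk1 was higher (0.17) and Slc12a4 lower (-0.40), 1 of 2 glycine receptor genes was lower (Glra2, -0.63), and 0 of 3 editing genes passed.

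Electroporation of L3mbtl3 was compared with the GFP controls to ask what changes with more L3mbtl3. None of 36 members tested was called by edgeR, and 2 of all 14698 genes were, which is 0.0136%. At an unadjusted p under 0.05 there were 6 members and 1264 genes. Of the 36 members 18 were higher and 18 lower, with a median log2 fold change of -0.03, the same to 2 decimals as over all genes tested. None of the genes in the lists of auxiliary subunits, scaffolds, transport, chloride, glycine receptors or editing was called.

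The member with the smallest p was Gria2. It measured 1674, 1522 and 1714 CPM in the L3mbtl3-electroporated libraries and 1245, 1231 and 979 CPM in the GFP controls. Every L3mbtl3-electroporated library lay above every control, but the difference did not pass over all genes (log2 0.51, SE 0.1102, edgeR adjusted p = 0.457). DESeq2 called it (log2 0.52, adjusted p = 0.00341) and 122 genes in all, and edgeR called it without GFP control replicate 1 (0.56, adjusted p = 0.0493), when 415 genes were called. With a trend with gene length taken out the log2 fold change was 0.25 (edgeR adjusted p = 0.651). Over its 12 alternatives the adjusted p ran from 0.00341 to 0.921.

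The next members by p had log2 fold changes of 0.34 for Gria3 (SE 0.116), 0.77 for Gabra4 (SE 0.264), 0.69 for Gabra2 (SE 0.248), 1.04 for Gabrr2 (SE 0.383) and 0.27 for Grin2b (SE 0.107), with edgeR adjusted p-values of 0.550 to 0.566. Gria3, X-linked, was at 37.9, 38.3 and 45.3 CPM against 34.2, 30.8 and 31.1 CPM. Xist was high in L3mbtl3-electroporated replicates 1 and 3 and in none of the GFP controls, and its part in this difference was not tested. Gabra4 was at 3.29, 3.01 and 2.80 CPM against 1.58, 2.14 and 1.64 CPM, and Gabra2 at 38.2, 43.8 and 66.1 CPM against 25.7, 29.0 and 37.2 CPM. The Gabra2 groups overlapped after TMM scaling, though not on the CPM scale. The Grin2b difference turned to -0.12 (edgeR adjusted p = 0.847) when a trend with gene length was taken out.

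**Figure D5:**
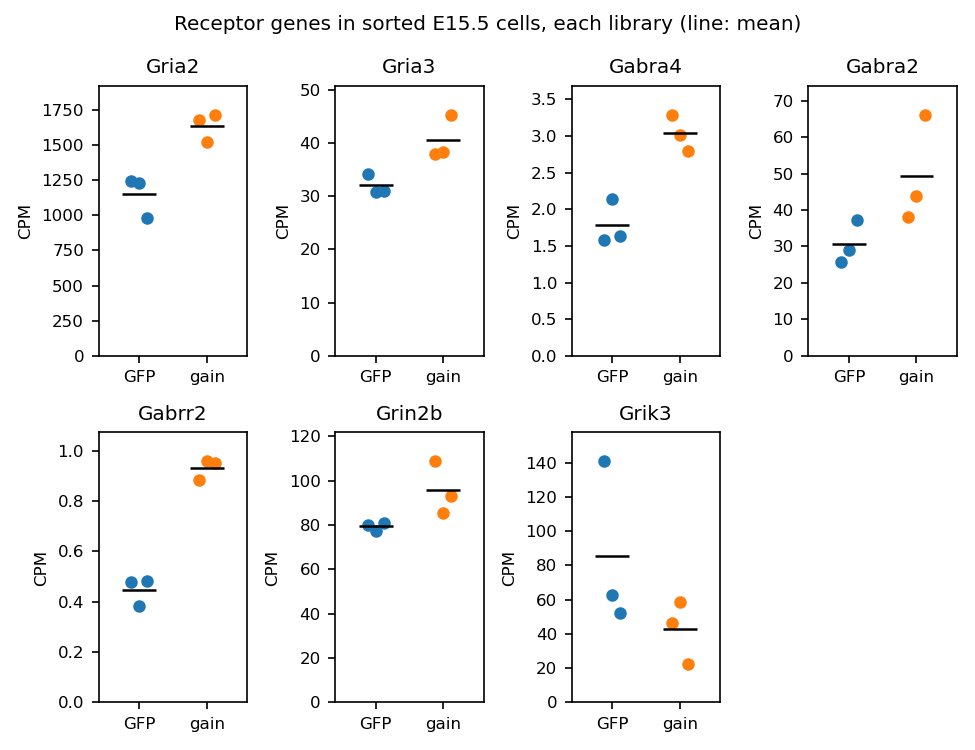
CPM in each sorted E15.5 library of the 6 receptor genes with the smallest p after electroporation of L3mbtl3 (gain, n = 3) against GFP alone (GFP, n = 3), and of Grik3; the line is the mean and each axis starts at 0. Gria2 lies at 1522 to 1714 CPM against 979 to 1245 CPM, and no gene shown passed edgeR's test.

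Grik3, which was added after its values were seen because of its uneven controls, measured 46.6, 58.5 and 22.7 CPM against 141, 62.9 and 52.5 CPM. The groups overlapped, and the difference did not pass (log2 -0.99, SE 0.439, edgeR adjusted p = 0.585). In the same libraries the ventral genes summed to 326, 304 and 46.9 CPM against 1136, 380.5 and 39.5 CPM. The highest value of both lay in GFP control replicate 1. GFP control replicate 3 had the lowest ventral sum, and more Grik3 than L3mbtl3-electroporated replicates 1 and 3. The part of ventral cells in the Grik3 values was not tested. Of 14 tested ventral genes 13 were lower after electroporation of L3mbtl3, 0 of them called, with a median of -1.03, and of 8 tested microglial genes 8 were lower, again with 0 called and a median of -2.40. Grm4, a presynaptic metabotropic receptor, and Grin3a were not named by p and are given for their spread. Within the GFP controls their highest values were 12.2-fold and 32.9-fold the lowest, and Gabre, at 12.0-fold, spread as widely as Grm4. The lowest values, all in replicate 3, stood for 12 counts of Grm4, 2 of Grin3a and 3 of Gabre. The Grin3a and Gabre folds therefore rest on counts no higher than the floor of 3 and are imprecise. Grm4 was at 7.05, 3.45 and 0.577 CPM in the GFP controls, against 2.84, 5.07 and 0.264 CPM after L3mbtl3. Grin3a was at 3.16, 1.26 and 0.0962 CPM against 1.77, 0.670 and 0.792 CPM. Neither difference passed (edgeR adjusted p = 0.893 for Grm4 and 0.868 for Grin3a), and the part of ventral cells in these values was not tested.

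Seen across all groups, Gabrb2, Gria4, Gabrg1, Gria1, Gria3 and Grm5 were called both between ages and in the libraries labelled knockout. The contrast between ages also holds sorting and electroporation. Of all genes tested, 62.3% were called between ages, and the share of all genes called in both comparisons was not computed. With 1 library left out, Gria1 and Gabrg1 each kept the labelled knockout call in 2 of 5 fits and Gria3 in 1. Both comparisons use the same E12.5 controls, so their values stand side by side without a test of overlap. Between ages and in the libraries labelled knockout the log2 values were 1.85 and 1.16 for Gabrb2, -1.23 and 0.72 for Gria4, and -3.04 and -0.82 for Gabrg1. For Gria1 they were 1.19 and -0.73, for Gria3 1.06 and -0.38, and for Grm5 1.01 and -1.34.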

How the data were processed

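Stranded libraries of poly(A)-selected RNA were read once from 1 end over 75 bases, according to the labels. The deposited files give raw counts per gene, made by the authors with featureCounts 2.0.1 on Ensembl GRCm38 genes with reversely stranded counting, per the file headers. The header command lists no option for reads that map to several places or overlap several genes, and 17 members share their span with another gene on the same strand. The submitters' processing notes also name HISAT2 2.2.1, SAMtools 1.9, deepTools 3.3.0, CASAVA 1.9 and FastQC 0.11.8. The annotation release is not given in the sources used here.

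Symbols were found for 45143 of 46078 gene identifiers. CD15+ cells named in the design text were not analysed here. Levels are CPM over the library total. The floor of 3 counts covers counting error only, since without molecular identifiers several reads can stem from 1 molecule. Within groups, replicate libraries were further apart than counting noise (chi-square per degree of freedom 3.79 to 94.4). Each comparison was fitted over all genes with edgeR 4.0.16 in R 4.3.3 (filterByExpr, TMM, robust quasi-likelihood test, two-sided, Benjamini-Hochberg). A gene was called at adjusted p under 0.05, and the SE is the absolute log2 fold change over the square root of F. Fold changes carry TMM factors. DESeq2 1.42.0, other scalings, filters, fits and leave-outs were alternatives, and the fits were tested on simulated data. A few members and list genes are left out by name and value, while the counts still include them. The other called members were named, or the 6 with the smallest p where fewer than 6 were called, with up to 4 called genes per list. Grik3, Grm4, Grin3a and Gsg1l were among the genes named beyond this rule. The members and lists were chosen with earlier results of these data known. Marker lists were cortical progenitors, intermediate progenitors, neurons, cortical excitatory neurons, Cajal-Retzius cells, ventral telencephalon, oligodendrocyte lineage, microglia, endothelium, choroid plexus, meninges and erythroid cells.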

Additional observations from a re-analysis of the deposited data

How the results depend on the processing

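Across the alternatives, 1 of the named members changed direction in 1 fit, while calls moved with the fit and with single libraries. For the L3mbtl3 electroporation, 69 of 72 member values kept their direction and side of the threshold. The exceptions were Gria2, called by DESeq2 and without GFP control replicate 1, and Grin2b, which turned to -0.12 with the length trend removed. For the labelled knockout, 53 of 77 did so and 24 lost the call, and between ages 287 of 324 did so and 37 lost it. In the L3mbtl3 electroporation, DESeq2 called 1 member and 122 genes, and leaving out 1 library gave 0 to 1 members and 0 to 415 genes. The median over members was -0.17 with the length trend removed and -0.0940 to 0.11 with 1 library left out. In the labelled knockout comparison, all 11 libraries in 1 fit gave 0 members and 6 genes, no filter on low counts gave 2266 genes, and leaving out 1 library gave 3 to 10 members and 603 to 1785 genes, with a median of -0.11 to -0.0495. Genes called fell to 658 without labelled knockout replicate 2, to 673 without heterozygote replicate 2 and to 603 without the wild-type. Between ages, the wild-type library as the only E12.5 control gave 12 members (9 higher, 3 lower) and 2680 genes, with that lone library assumed to vary like the GFP controls. Leaving out 1 library gave 22 to 29 members, 7793 to 11333 genes and a median of 0.0635 to 0.43. That median was 0.10 with library totals and 0.0594 with no filter on low counts. The cause of these shifts was not tested.

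Replicate numbers are shared between groups. The deviations of same-numbered libraries correlated at r of 0.18, 0.01 and 0.26 for the electroporated groups, and of -0.01 to 0.04 for the E12.5 groups. L3mbtl3-electroporated replicates 1 and 3 correlated best with the GFP control of the same number, and replicate 2 with GFP control replicate 1 (0.12). Deviations of the 2 libraries labelled knockout are equal and opposite by construction, so the E12.5 values cannot decide whether numbers pair libraries. With the replicate block, 0 members and 3 genes were called for the L3mbtl3 electroporation, and 5 members and 948 genes for the labelled knockout, with a median of -0.0914 over members, and Gria3 was not called (edgeR adjusted p = 0.0747). Counts set the limit for 8 to 11 members per comparison that did not pass the filter, the highest of them at 10, 14 and 26 counts in any library compared.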
